A study of Mus musculus with 8 samples.

Results

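The miR-130 and miR-301b members of a microRNA seed family were described in mouse embryonic fibroblasts that lack Csk, across 4 transfections. The members are the 3 array names mmu-miR-130a, mmu-miR-130b and mmu-miR-301b, out of 611 mouse microRNAs on the array, and were taken by exact match of the array's name. All 3 were detected on all 8 arrays and were among the 243 microRNAs tested. The cells were Csk-/- fibroblasts of strain C57BL/6J that had received c-Src together with Csk, c-Src alone, Csk alone, or an empty vector (mock), and all 4 groups, mock included, carry the deletion of the cells' own Csk. Each group had 2 arrays, which the labels call biological replicates and the series description calls duplicates, so p-values measure only the spread between these arrays, which may be technical. The labels name neither the promoter of the transfected genes nor whether the cells were 1 clone, and the arrays hold no probe for Csk or c-Src, so the transfections could not be checked on them.

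MicroRNAs are short RNAs that, loaded on an Argonaute protein, pair with sites in messenger RNAs and lower the amount of protein made from them. Pairing starts at the seed, bases 2 to 8 from the 5′ end, so microRNAs with the same seed are grouped in a family with overlapping predicted targets. In adipocyte precursors miR-130 is known to repress Pparg, the nuclear receptor of fat cell differentiation. Csk is the kinase that phosphorylates the tail of c-Src and other Src family kinases and thereby holds them inactive, and c-Src is a tyrosine kinase that acts at cell adhesions and downstream of growth factor receptors.

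The sequences show what the members share and how little separates them. They are RefSeq sequences of build GRCm38.p6, written 5′ to 3′, with the 7 seed bases in capitals. The array's names carry no arm, and the arm that holds the family seed was taken for the names without a star.
mmu-miR-130a-3p: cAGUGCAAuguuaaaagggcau
mmu-miR-130b-3p: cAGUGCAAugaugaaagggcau
mmu-miR-301a-3p: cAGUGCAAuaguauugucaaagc
mmu-miR-721: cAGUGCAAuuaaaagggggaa
Mir301b hairpin: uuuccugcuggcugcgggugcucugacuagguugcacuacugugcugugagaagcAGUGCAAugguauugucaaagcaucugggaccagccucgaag
mmu-miR-130b-5p: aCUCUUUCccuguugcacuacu

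For miR-301b the hairpin is shown, in which the family seed occurs once, at bases 56 to 62 of 97. miR-130b-5p, the other arm of the miR-130b hairpin and the array's miR-130b*, is shown because it comes from the same precursor with a seed of its own. Of the mature mouse microRNAs listed by RefSeq, 7 had the family seed, among them miR-130a-3p and miR-130b-3p of the members, and miR-301a and miR-721 as 2 others that the array names. miR-130a-3p and miR-130b-3p had 20 of 22 bases in common and differed by U11A and A13G, counted from 1 at the 5′ end, with the base of miR-130a first. Against the stretch of the Mir301b hairpin that starts 1 base before its seed, miR-301a-3p had 22 of 23 bases in common and differed by A10G. The share of each signal that came from so close a relative was not tested, since the probe letters were not used here.

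Mir130b (chr16:17124061-17124142) and Mir301b (chr16:17124400-17124496) lie 257 bases apart on the minus strand, inside the protein-coding gene 2610318N02Rik in this annotation. Mir130a (chr2:84741115-84741178, minus strand) lies on another chromosome with no gene spanning it, 2459 bases from Ypel4. Mir301, the hairpin of miR-301a (chr11:87113004-87113089, plus strand), lies within Ska2, and Mir721 (chr5:136375716-136375803, minus strand) within Cux1.

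The 8 arrays lay on 1 slide and were scanned once, each group in its own slide column, so column and group cannot be told apart. Between 201 and 250 mouse microRNAs were detected per array, no spot was saturated, and the 2nd Csk array stood apart with 696 outlier spots and the 201 detected microRNAs, against 270 to 351 outlier spots on the others. The fibroblast and mesenchymal microRNAs miR-199a-5p, miR-199a-3p, miR-199b* and miR-214 were detected on all arrays, whereas miR-143 was detected on some and miR-145 on none, out of 6 listed. Their summed scaled level was 3.97 to 3.99 in Csk+c-Src cells, 3.73 to 4.05 in c-Src cells, 3.88 to 4.12 in Csk cells and 4.71 to 4.97 in mock cells. Of 7 epithelial markers 0 were detected on all arrays and 1 on any, and the same counts were found for 6 blood cell markers. Both endothelial markers were detected on at least 1 array, and 1 of them, miR-126-3p, on all arrays. Their summed scaled levels were 0.0445 to 0.0469 in Csk+c-Src cells, 0.073 to 0.0767 in c-Src cells, 0.0966 to 0.0971 in Csk cells and 0.0629 to 0.0662 in mock cells. Of 3 neural markers 1, miR-128, was detected on all arrays and 2 on any, with summed scaled levels of 0.0693 to 0.073 in Csk+c-Src cells, 0.0941 to 0.096 in c-Src cells, 0.093 to 0.0976 in Csk cells and 0.071 to 0.0763 in mock cells. Of 4 muscle markers 2 and of 7 embryonic stem cell markers 1 were detected on any array, and 0 on all. The part of these markers in the results was not tested.

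miR-130b and miR-301b were lowest in Csk cells, and miR-130a stayed within a narrow range on all arrays. Levels are log2 of the microRNA's summed probe signal after division by the array's 75th percentile, so each is read against other groups of the same microRNA and not against another microRNA. In bulk RNA, fewer cells of a type and less RNA per cell cannot be told apart.

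miR-130b gave unscaled signals of 279 and 285 in Csk+c-Src cells, 323 and 330 in c-Src cells, 122 and 115 in Csk cells, and 192 and 211 in mock cells. Its levels were -1.36 and -1.37 in Csk+c-Src cells, -1.32 and -1.20 in c-Src cells, -2.53 and -2.42 in Csk cells, and -1.71 and -1.58 in mock cells. The Csk arrays lay below all 6 others and the mock arrays below the 4 arrays with c-Src, with or without Csk. In the order of group means, c-Src (-1.26 ± 0.08), Csk+c-Src (-1.36 ± 0.01), mock (-1.65 ± 0.09) and Csk (-2.47 ± 0.08; SD, n = 2 arrays each), only c-Src and Csk+c-Src as neighbours were not told apart by the fit (adjusted p = 0.275).

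miR-301b gave signals of 77.9 and 77.8 in Csk+c-Src cells, 82 and 88.6 in c-Src cells, 32.1 and 33.1 in Csk cells, and 67.2 and 65.9 in mock cells. Its levels were -3.20 and -3.24 in Csk+c-Src cells, -3.30 and -3.10 in c-Src cells, -4.46 and -4.21 in Csk cells, and -3.23 and -3.26 in mock cells. The Csk arrays again lay below all 6 others, whose ranges overlapped one another. The means of c-Src (-3.20 ± 0.14), Csk+c-Src (-3.22 ± 0.03) and mock (-3.24 ± 0.02) were not told apart, and that of Csk was -4.33 ± 0.18 (SD, n = 2 arrays each).

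miR-130a, from the other locus, gave signals of 4320 and 4415 in Csk+c-Src cells, 5161 and 5365 in c-Src cells, 4911 and 4613 in Csk cells, and 3946 and 4433 in mock cells. After scaling its levels were 2.59 and 2.59 in Csk+c-Src cells, 2.68 and 2.82 in c-Src cells, 2.80 and 2.91 in Csk cells, and 2.65 and 2.81 in mock cells. All 8 levels fell within 0.33 on the log2 scale, against 1.33 for miR-130b and 1.36 for miR-301b. In the order Csk (2.86 ± 0.08), c-Src (2.75 ± 0.10), mock (2.73 ± 0.12) and Csk+c-Src (2.59 ± 0.01; SD, n = 2 arrays each), no neighbours were told apart, and only the ends of the order differed past the threshold.

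**Figure D1:**
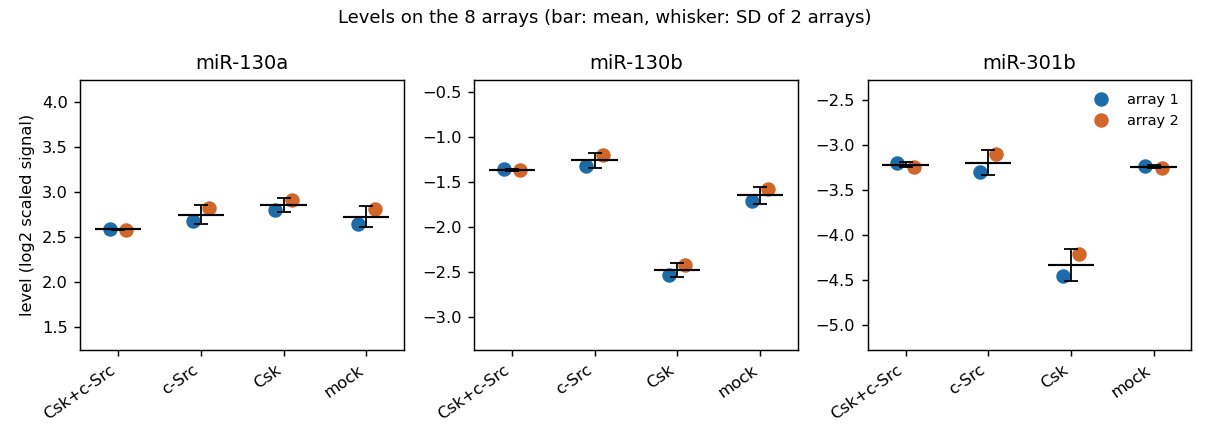
Levels of miR-130a, miR-130b and miR-301b (log2 scaled signal, vertical axis) on the 2 arrays of each group, with the group mean and SD. The Csk arrays of miR-130b (-2.53 and -2.42) and of miR-301b (-4.46 and -4.21) lie below all the others, whereas all arrays of miR-130a lie between 2.59 and 2.91; each panel spans the same height on its axis.

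Csk alone was set against mock to ask what returning Csk does to cells that lack it. miR-130b and miR-301b fell in Csk cells and miR-130a did not pass the test, 2 of 3 members called, where 55.1% of all tested microRNAs were called, 38.3% higher and 16.9% lower. miR-130b fell by 0.82 on the log2 scale (SE 0.07, adjusted p = 0.000394 by limma with Benjamini-Hochberg adjustment over 243 microRNAs), to 0.565 times its mock level (95% interval 0.499 to 0.638). miR-301b fell by 1.09 (SE 0.10, adjusted p = 0.0006), to 0.47 times its mock level (95% interval 0.391 to 0.566). Array for array along the slide, the differences were -0.81 and -0.83 for miR-130b and -1.23 and -0.95 for miR-301b. The median difference over all tested microRNAs was 0.07. Only 7 of the 243 had a lower difference than miR-301b and 16 a lower one than miR-130b. miR-130a differed by 0.13 (95% interval -0.08 to 0.34, adjusted p = 0.24). Without the 2nd Csk array the differences were -0.93 for miR-130b and -1.26 for miR-301b. With normexp background correction, which added an offset of 50, miR-301b differed by -0.57 and lost its call (adjusted p = 0.182). The median over all tested microRNAs was -0.29 under that setting. As a mean of log2 over its 4 probes miR-301b differed by -0.55 and kept its call. That mean includes A_54_P2852 and A_54_P2853, which stood at the floor (log2 -5.69) on every array and so added no difference.

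The probes of each member were read separately, because a sum can rest on 1 of them. Both probes of miR-130b, A_54_P1265 and A_54_P1266, stood well above background on all 8 arrays, and gave differences between Csk and mock of -0.88 and -0.79. Of the 4 probes of miR-301b, A_54_P2852 and A_54_P2853 were well above background on 0 arrays, with mean signals from -1.49 to 1.21 and from 0.484 to 4.22. The signal of miR-301b therefore came from A_54_P2854, well above background on 7 arrays, and A_54_P2855, on 8 arrays. An array was counted where most spots of the probe stood well above background. The exception for A_54_P2854 was the 2nd Csk array, on which 0 of its 5 spots stood well above background. On the 1st Csk array 4 of its 5 spots did, and for A_54_P2855 3 of 5 did on the 2nd Csk array. A_54_P2854 gave 11.7 and 11.2 signal units in Csk cells, against 26.4 and 26.6 in mock cells. A_54_P2855 gave 20.3 and 18.8 in Csk cells, against 38.9 and 39.6 in mock cells, a log2 difference of -1.06. The spots of a probe varied by a median of 5.67% and 10.3% for the probes of miR-130b and 9.89% and 7.66% for those 2 probes of miR-301b (coefficient of variation within an array). Both probes of miR-130a gave differences near zero, 0.14 and 0.12.

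**Figure D2:**
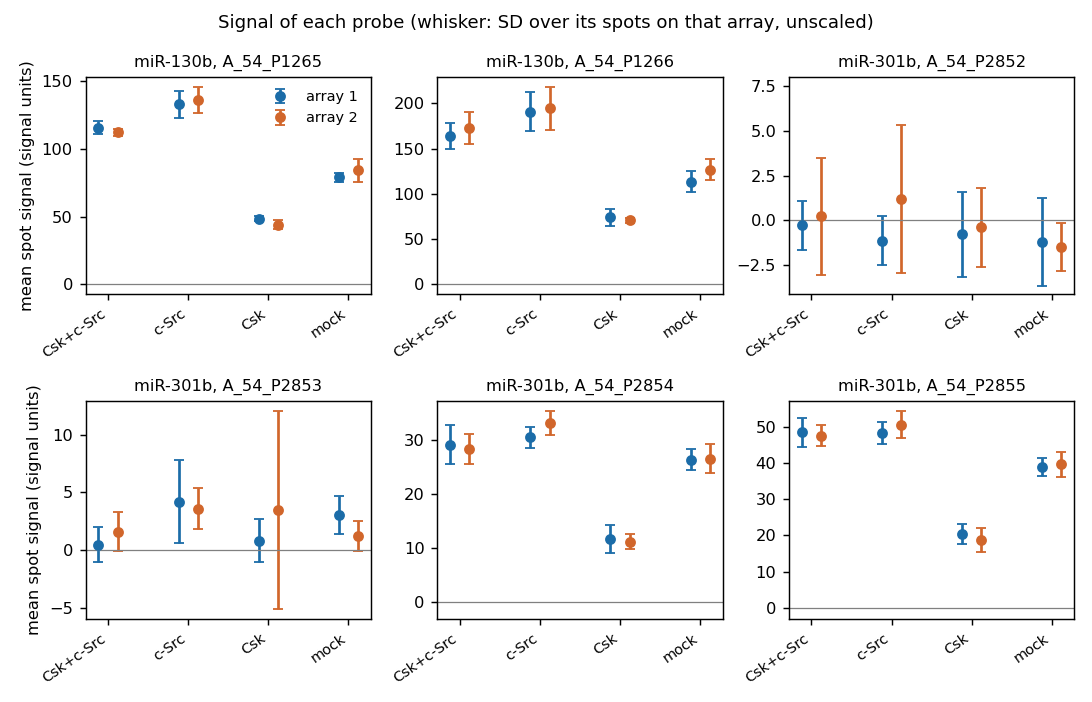
Mean unscaled signal of each probe of miR-130b and miR-301b by group and array, with the SD over its 10 or 5 spots on that array. Both probes of miR-130b and the probes A_54_P2854 and A_54_P2855 of miR-301b are lowest on the Csk arrays, whereas A_54_P2852 and A_54_P2853 lie around 0 on every array.

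Csk+c-Src was set against Csk to ask what c-Src adds where Csk is present. All 3 members were called, where 60.9% of tested microRNAs were: 2 rose, with 19.3% of all called higher, and miR-130a fell, with 41.6% called lower. miR-130b rose by 1.11 (SE 0.07, adjusted p = 0.000106), a 2.16-fold difference (95% interval 1.91 to 2.44). miR-301b rose by 1.11 (SE 0.10, adjusted p = 0.000443), also 2.16-fold (95% interval 1.80 to 2.60). The median over all tested microRNAs was -0.15, and 8 had a higher difference than miR-301b and 9 a higher one than miR-130b. Along the slide the differences were 1.17 and 1.05 for miR-130b and 1.26 and 0.97 for miR-301b. Without the 2nd Csk array they were 1.36 and 1.43. miR-130a fell by 0.27 (SE 0.08, adjusted p = 0.0365), which relative to the median of all tested microRNAs was -0.12. That call held with the same sign in 10 of 26 alternative settings and in 2 of the 8 that leave out 1 array. It was lost without either Csk array (-0.32 without the 1st, adjusted p = 0.0584, and -0.01 without the 2nd, adjusted p = 0.978), either Csk+c-Src array (-0.27, adjusted p = 0.118, and -0.25, adjusted p = 0.235), the 2nd mock array (-0.27, adjusted p = 0.0855) or the 2nd c-Src array (-0.27, adjusted p = 0.0645). Its sign turned with quantile normalization (0.12) and with scaling over all mouse microRNAs (0.08). For miR-301b normexp background correction left 0.09 (adjusted p = 0.88), beside a median of -0.13 over all tested microRNAs under that setting. The mean of log2 over probes, with A_54_P2852 and A_54_P2853 at the floor on every array, gave 0.55.

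c-Src was set against mock to ask what c-Src does in cells with no Csk. Only miR-130b was called among the members, 1 of 3, where 44.4% of all tested microRNAs were called, 25.9% higher and 18.5% lower. miR-130b rose by 0.39 (SE 0.07, adjusted p = 0.00905), 1.31-fold (95% interval 1.16 to 1.48), with 0.40 and 0.38 along the slide. Its probes gave 0.41 and 0.37, and 39 tested microRNAs had a higher difference. miR-301b differed by 0.05 (95% interval -0.22 to 0.31, adjusted p = 0.787) and miR-130a by 0.02 (95% interval -0.19 to 0.23, adjusted p = 0.899). The call for miR-130b was lost without the 2nd c-Src array (0.31), the 2nd mock array (0.44) or the 2nd Csk+c-Src array (0.37). It was also lost with normexp background correction (0.07, adjusted p = 0.546 by limma), beside a median of -0.46 over all tested microRNAs under that setting. At an unchanged 0.39 it was lost with no detection filter (adjusted p = 0.0529) or only the c-Src and mock arrays in the fit (adjusted p = 0.0509).

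Csk+c-Src was set against c-Src to ask what Csk does in cells given c-Src. None of the 3 members passed the test by limma, where 44.9% of all tested microRNAs were called, 15.6% higher and 29.2% lower. miR-130a differed by -0.16 (95% interval -0.37 to 0.05, adjusted p = 0.18), miR-130b by -0.11 (95% interval -0.28 to 0.07, adjusted p = 0.275) and miR-301b by -0.02 (95% interval -0.29 to 0.24, adjusted p = 0.915), beside a median of -0.08 over all tested microRNAs. At an unadjusted p, the smallest of the 3 was 0.102, for miR-130a. The intervals of miR-130b and miR-301b in this comparison end short of the differences these microRNAs showed between Csk and mock (-0.82 and -1.09).

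Cells given both genes were also compared with mock. miR-130b was called higher, 1 of 3 members, where 34.2% of all tested microRNAs were called, 12.3% higher and 21.8% lower. It rose by 0.28 (SE 0.07, adjusted p = 0.0306), 1.22-fold. miR-301b differed by 0.02 (95% interval -0.24 to 0.29) and miR-130a by -0.14 (95% interval -0.35 to 0.07). The call for miR-130b was lost in 9 of 26 alternative settings, among them those without either mock array, where it was 0.22 and 0.36, without either Csk+c-Src array, where it was 0.28 and 0.31, and without the 2nd c-Src array, where it was 0.29. With normexp background correction the difference was 0.02 (adjusted p = 0.886 by limma), beside a median of -0.46 over all tested microRNAs under that setting. To order the groups, c-Src was also set against Csk: 2 of 3 members were called, where 63% of all tested microRNAs were, 26.3% higher and 36.6% lower, with 1.21 for miR-130b, 1.14 for miR-301b and -0.11 for miR-130a. These comparisons share arrays with one another, each group standing in several of them, so their values are given side by side and not as separate evidence.

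The difference of differences asked whether c-Src changed a microRNA by as much with Csk as without it. For miR-130b and miR-301b it was called, 2 of 3 members, where 50.6% of all tested microRNAs were called, 13.6% higher and 37% lower. For miR-130b the difference between Csk+c-Src and Csk exceeded that between c-Src and mock by 0.72 (SE 0.10, adjusted p = 0.00303). For miR-301b it exceeded it by 1.06 (SE 0.15, adjusted p = 0.00315). For miR-130a the value was -0.29 (95% interval -0.58 to 0.01, adjusted p = 0.0886), beside a median of -0.17 over all tested microRNAs. The same values are, by construction, those of the Csk difference with c-Src minus the Csk difference without it. With normexp background correction neither call held, at 0.56 for miR-130b (adjusted p = 0.0971) and 0.63 for miR-301b (adjusted p = 0.29). The median over all tested microRNAs was 0.29 under that setting.

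**Figure D3:**
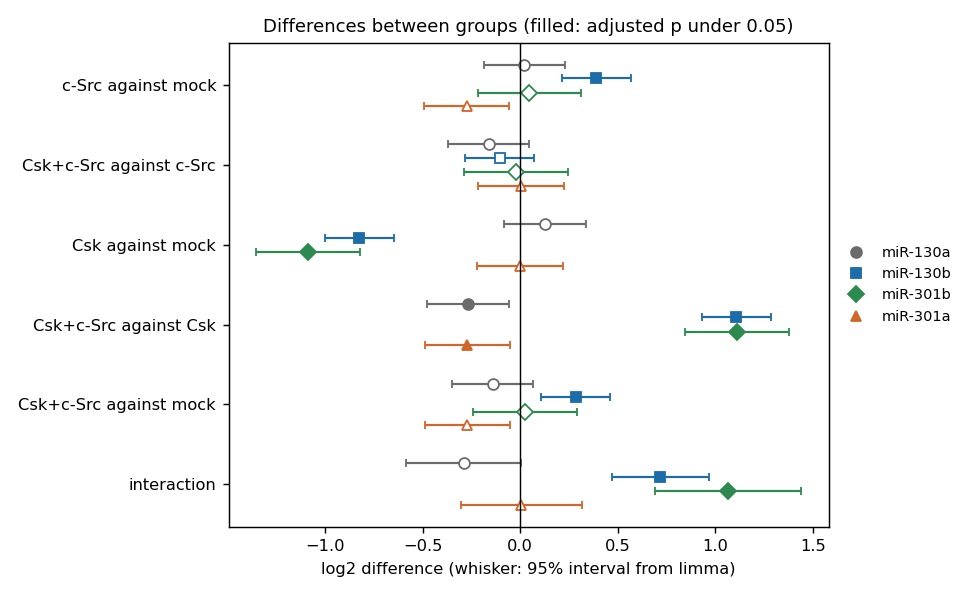
Log2 differences of the 3 members and of miR-301a in each comparison except c-Src against Csk, which is not drawn (horizontal axis, with the 95% interval from limma), filled where the adjusted p was under 0.05. miR-130b and miR-301b lie at -0.82 and -1.09 for Csk against mock and at 1.11 and 1.11 for Csk+c-Src against Csk, whereas miR-130a and miR-301a stay between -0.29 and 0.13 throughout.

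Under 6 other scalings, the unscaled signals and the authors' series table among them, the Csk against mock difference ran from -1.04 to -0.75 for miR-130b and from -1.26 to -1.01 for miR-301b, and for miR-130a it lay on both sides of 0, from -0.15 to 0.20. Relative to the median of all tested microRNAs, the reported values were -0.89 for miR-130b, -1.16 for miR-301b and 0.06 for miR-130a. Under the 6 other scalings they ran from -1.02 to -0.89, from -1.22 to -1.04 and from -0.14 to 0.07. Levels raised to the floor do not follow an array's scaling, so subtracting the median takes out a shared factor only in part. In the settings tried, 26 in all, the Csk against mock difference of miR-130b was called with the same sign in 26 and that of miR-301b in 25, the exception being normexp.

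**Figure D4:**
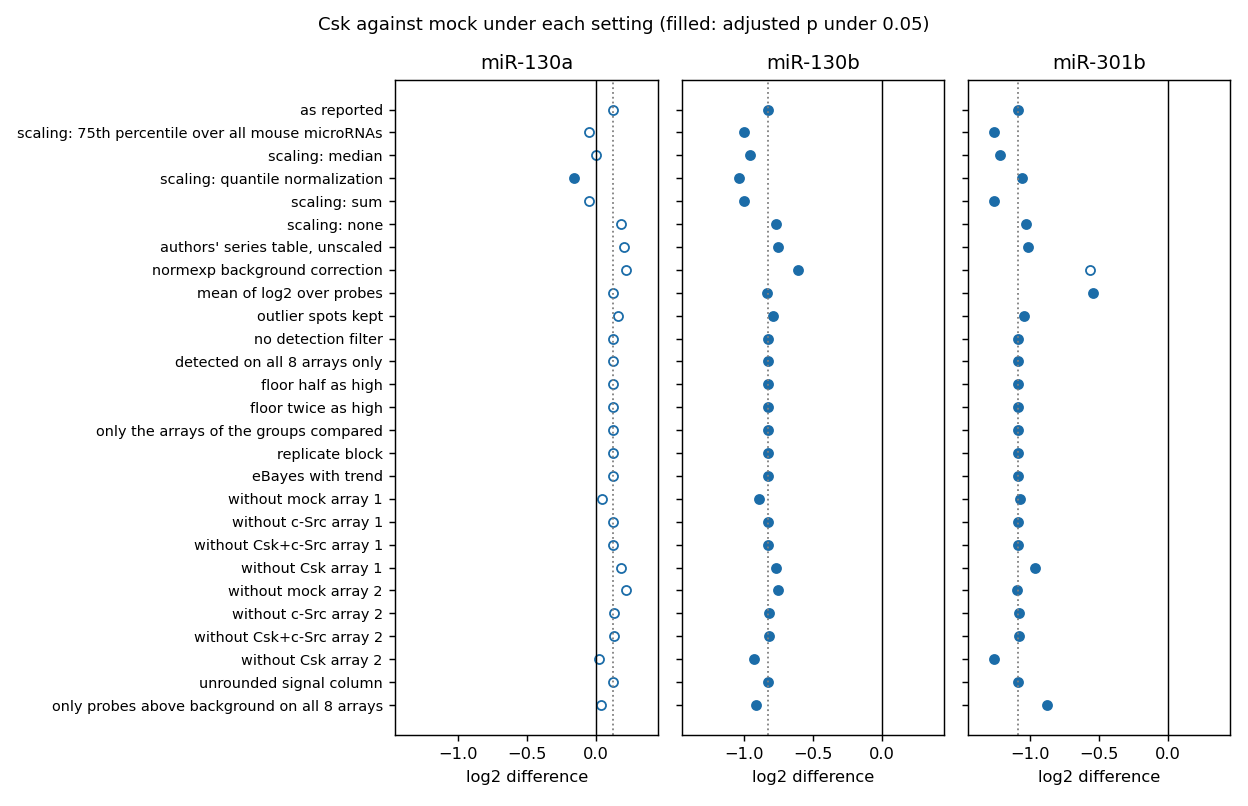
Log2 difference between Csk and mock for each member (horizontal axis) under the reported processing and each alternative (vertical axis), filled where the adjusted p was under 0.05. miR-130b runs from -1.04 to -0.61 and is filled throughout, miR-301b runs from -1.26 to -0.55 with 1 open point, and miR-130a lies on both sides of 0.

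The other strand of the miR-130b hairpin was close to the detection limit. miR-130b*, the array's name for the arm shown above as miR-130b-5p, had signals of 32.4 and 27.5 in Csk+c-Src cells, 37.5 and 35.4 in c-Src cells, 9.04 and 12.8 in Csk cells, and 16.1 and 23.8 in mock cells. It was not detected on either Csk array, and every other array detected it. In scaled levels the 2nd mock array (-4.73) lay beside the 2nd Csk+c-Src array (-4.74), so these groups overlapped. It was at least 2.05-fold higher in Csk+c-Src than in Csk cells (adjusted p = 0.00774) and at least 1.54-fold lower in Csk than in mock cells (adjusted p = 0.048), where on each Csk array its signal, or the floor if that was above it, stood for its level. These bounds are on group means and leave out the spread between arrays. The fitted differences, -0.40 and -0.85 along the slide for Csk against mock, were called in 6 of 24 alternative settings, and with 1 array left out ran from -0.92 to -0.32. The array named 1 of the 4 star strands listed for the members and miR-301a.

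miR-301a, which has the family seed and lies at a locus of its own, did not follow miR-301b. Its levels were 0.87 and 0.90 in Csk+c-Src cells, 0.81 and 0.95 in c-Src cells, 1.07 and 1.24 in Csk cells, and 1.08 and 1.23 in mock cells. In these summed levels the 4 arrays with c-Src lay below the 4 without it. The brighter probe, A_54_P2440, gave -0.35 between c-Src and Csk, and A_54_P2441 gave -0.01, so the order rests on the brighter probe. Between Csk+c-Src and Csk they gave -0.31 and -0.13. Csk and mock differed by -0.00 (95% interval -0.22 to 0.22), in the comparison in which miR-301b fell by 1.09. Between Csk+c-Src and Csk the difference was -0.27 (adjusted p = 0.0409), a call that held in 8 of 26 alternative settings and in 2 of the 8 that leave out 1 array. It was 0.01 without the 2nd Csk array. Between c-Src and mock the difference was -0.28 (adjusted p = 0.0506).

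miR-721, the remaining carrier of the seed on the array, was highest in Csk cells, where miR-130b and miR-301b were lowest. It had signals of 12.7 and 12.8 in Csk+c-Src cells, 30.6 and 32.7 in c-Src cells, 47.6 and 46.0 in Csk cells, and 11.3 and 7.28 in mock cells, and was not detected in Csk+c-Src and mock cells. It was at least 3.69-fold higher in Csk than in mock cells (adjusted p = 5.24e-05) and at least 2.1-fold higher in c-Src than in mock cells (adjusted p = 0.000372). Between Csk+c-Src and Csk it was at least 3.69-fold lower (adjusted p = 3.1e-05). It was among the tested microRNAs only through its detection in c-Src and Csk cells. Its levels on the Csk+c-Src and mock arrays were all set to the floor (SD 0), so these p-values do not measure the spread between those arrays. None of its 4 probes reached well above background on more than 1 array, with mean signals of at most 12.9. With normexp background correction the differences from mock were -0.26 for Csk and -0.58 for c-Src. The medians over all tested microRNAs were -0.29 and -0.46 under that setting, so these values lay near a shift of the whole set.

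**Figure D5:**
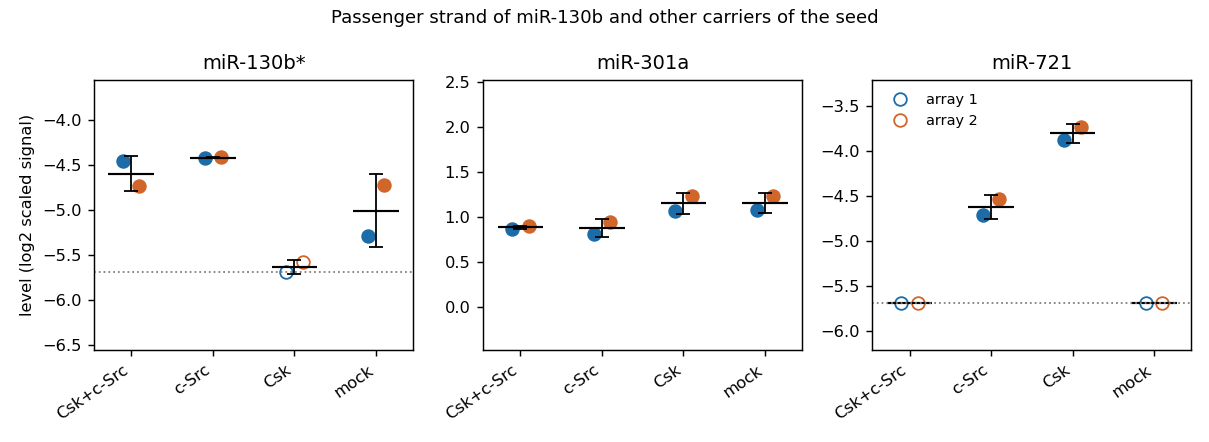
Levels of miR-130b*, miR-301a and miR-721 (log2 scaled signal, vertical axis) on the 2 arrays of each group, with the group mean and SD; open points were not detected and the dotted line is the floor of -5.69. miR-130b* is at or near the floor in Csk cells, miR-301a lies between 0.81 and 1.24 on all arrays, and miR-721 leaves the floor only in c-Src and Csk cells.

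Families whose seed overlaps the members' by 6 bases, shifted by 1, were read as a further list of 5, all tested. miR-19a and miR-19b belong to the miR-17 to miR-92 cluster, and miR-148a, miR-148b and miR-152 form a family of their own. Between Csk and mock 4 rose and 1 fell, where 55.1% of all tested microRNAs were called, 38.3% higher and 16.9% lower. The rise of miR-19a (0.23) was called in 10 of the 18 alternative settings other than leaving out 1 array. With 1 array left out it ran from 0.12 to 0.28, and the call did not hold throughout. The rise of miR-19b (0.27) turned to -0.20 with quantile normalization. miR-148a fell by 0.78 (adjusted p = 0.000262), the only 1 of the 5 with the sign of miR-130b and miR-301b, and miR-152 rose by 0.41 (adjusted p = 0.000814). Between Csk+c-Src and Csk 1 rose, 3 fell and 1 did not pass the test, where 60.9% of all tested microRNAs were called, 19.3% higher and 41.6% lower. miR-19a rose by 0.21, miR-152 fell by 0.67 and miR-148a fell by 0.24, the last turning to 0.16 with quantile normalization. The rise of miR-19a was called in 11 of the same 18 settings. With 1 array left out it ran from 0.15 to 0.46, and again the call did not hold throughout. Between c-Src and mock 2 rose and 2 fell, where 44.4% of all tested microRNAs were called, 25.9% higher and 18.5% lower. The differences were 0.51 for miR-19b, 0.39 for miR-19a, -0.37 for miR-152 and -0.25 for miR-148a. The median over the list was 0.27, -0.24 and 0.09 in these comparisons, beside 0.07, -0.15 and 0 over all tested microRNAs.

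Likeness was measured as the root mean square difference between the 8 levels of a pair of microRNAs after each was centred on its own mean, over 242 other tested microRNAs for each member. The nearest to miR-130b was miR-301b, at 0.141, and the nearest to miR-301b was miR-130b. miR-130b* came next for miR-130b, at 0.154, but lay at the floor on 1 array and was not detected on either Csk array. miR-466a-3p followed at 0.155, with levels at the floor on 2 arrays. For miR-301b the next were miR-374 at 0.152 and miR-467a at 0.159. miR-467a lay at the floor on both Csk arrays. miR-130a ranked 110th from miR-130b and 117th from miR-301b, at 0.551 and 0.561. Its own nearest were miR-96 at 0.064, miR-361 at 0.0734 and miR-652 at 0.0753, and miR-301a ranked 16th at 0.107. The root mean square of miR-130a about its own mean was 0.114, so for so flat a microRNA a small distance need not mean shared movement. The 8 arrays and their scaling are shared by all pairs, and a small distance says only that centred levels lay close on these arrays.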

How the data were processed

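Total RNA was labelled with Cy3 and hybridised to 1-colour Agilent microRNA arrays, per the labels' protocols. The deposited intensity of each spot is the background-subtracted processed signal of Feature Extraction 9.5.3.1, unscaled between arrays, per the file headers. On the 1st Csk array the deposited values were rounded. Spots not marked as outliers were averaged to a probe value, a microRNA's probe values were added up, and the sum was scaled by its array's 75th percentile (taken over 187 microRNAs that every array detected). Scaled sums below 0.0193 (log2 -5.69) were raised to that floor before taking log2. Group means were fitted with limma 3.58.1 (R 4.3.3) on the 8 arrays together (4 residual, 5.09 total degrees of freedom), for 243 microRNAs with detection on both arrays in 1 or more groups. Two-sided p-values were adjusted by Benjamini-Hochberg and called under 0.05. With 2 arrays per group the smallest exact permutation p is 0.333. The steps were tested on simulated data.

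Named are the members, the other seed carriers, star strands, microRNAs with a shifted seed and the 3 nearest patterns of each member. Members and lists were chosen with earlier results of these data known. Same-numbered arrays correlated from -0.0912 to 0.438 in their deviations from group means, and from 0.266 to 0.438 among mock, c-Src and Csk+c-Src. The numbers were not taken as pairs. Alternatives in scaling, background correction, filter, floor, probe summary, fit and arrays left out were tried. The number of arrays limits the precision. Figures used matplotlib 3.10.9.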

Additional observations from a re-analysis of the deposited data

Results flagged for a closer look

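For miR-130b and miR-301b the difference between groups with and without c-Src was not the same with Csk as without it, by limma's interaction term. For miR-130b, Csk+c-Src minus Csk exceeded c-Src minus mock by 0.718 on the log2 scale (adjusted p = 0.00303). For miR-301b it exceeded it by 1.06 (adjusted p = 0.00315). Along the slide the values were 0.77 and 0.66 for miR-130b and 1.32 and 0.81 for miR-301b. The 2nd Csk array, with 696 outlier spots, enters both. Without it they were 0.97 and 1.39. With normexp background correction neither call held by limma (0.56, adjusted p = 0.0971, and 0.63, adjusted p = 0.29). The mean levels of miR-301b were -3.24 in mock, -3.20 in c-Src, -3.22 in Csk+c-Src and -4.33 in Csk cells. Each group had its own slide column, so column and group cannot be told apart here.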

How the results depend on the processing

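In 26 alternative settings, 24 planned and 2 chosen after seeing the data (an unrounded signal column and probes above background on all arrays), counts of members called moved as follows, the cause not tested. Against mock, c-Src called 1 member as reported, 2 with quantile normalization, 3 unscaled or in the authors' series table, and 0 with normexp, no detection filter or only the arrays compared. Csk+c-Src against mock called 1 as reported, 2 unscaled, in the authors' series table or with probes above background only, and 0 with normexp, outlier spots kept, no filter or only the arrays compared. Csk+c-Src against c-Src called 0 as reported, 2 with median scaling, unscaled or in the series table, 1 with quantile normalization and 3 with probes above background only. With normexp Csk against mock called 1, Csk+c-Src against Csk 1, c-Src against Csk 1 and the interaction 0. Normexp called 28 microRNAs for c-Src against mock (108 as reported), 19 for Csk+c-Src against c-Src (109), 19 for Csk against mock (134), 39 for Csk+c-Src against Csk (148), 1 for Csk+c-Src against mock (83), 40 for c-Src against Csk (153) and 1 for the interaction (123). With no filter the 1st and the 5th of these were 66 and 46, with more microRNAs tested. Leaving out 1 array at a time called 56 to 112, 82 to 112, 109 to 137, 111 to 147, 30 to 88, 131 to 151 and 80 to 121 microRNAs, in the same order, and 0 to 1, 0 to 0, 2 to 2, 2 to 3, 0 to 1, 2 to 2 and 2 to 2 members.

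Differences called as reported or under the alternative turned their sign as follows. miR-130a turned to 0.0788 (75th percentile over all mouse microRNAs) and 0.121 (quantile) in Csk+c-Src against Csk, to -0.154 in Csk against mock and 0.348 in c-Src against Csk (quantile). miR-301a turned in Csk+c-Src against Csk to 0.0757 with that percentile and 0.0104 without the 2nd Csk array (-0.354 to 0.0104 with 1 array left out). miR-148a turned there to 0.109 with that percentile and 0.164 (quantile), and in c-Src against mock to 0.063 unscaled and 0.0582 in the series table. miR-152 turned to 0.103 in the interaction with that percentile, and miR-19b with quantile normalization to -0.197 in Csk against mock and 0.23 in the interaction. Normexp turned miR-721 to -0.581 (c-Src against mock), 0.00309 (Csk+c-Src against c-Src), -0.258 (Csk against mock) and 0.261 (interaction), miR-148b to -0.0104 (Csk against mock) and miR-130b* to -0.0152 (Csk+c-Src against Csk) and -0.102 (c-Src against Csk). The normexp medians over all tested microRNAs were -0.457, 0.00636, -0.288 and 0.286 in the comparisons of miR-721, in that order. In those of miR-130b* they were -0.132 and -0.172. Differences called under neither turned as well, among the members in Csk against mock for miR-130a (3 further scalings), in c-Src against mock for miR-130a (-0.07 to 0.33 over all settings) and miR-301b (-0.54 to 0.36), in Csk+c-Src against c-Src for miR-130a (-0.29 to 0.07), miR-130b (-0.24 to 0.12) and miR-301b (-0.14 to 0.21), in Csk+c-Src against mock for miR-130a (-0.26 to 0.06) and miR-301b (-0.48 to 0.23), in c-Src against Csk for miR-130a (-0.20 to 0.35) and in the interaction for miR-130a (-0.48 to 0.12). Scaling moved the split of all calls: Csk against mock had 93 higher and 41 lower as reported, 62 and 62 with the percentile over all mouse microRNAs, 71 and 62 with quantile normalization, 76 and 74 by sum and 80 and 59 by median.

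The replicate numbers were not taken as pairs in the reported fit, although same-numbered arrays shared a slide row. With the replicate number as a block, Csk against mock gave -0.82 for miR-130b (adjusted p = 0.000363) and -1.09 for miR-301b (adjusted p = 0.00119), 151 microRNAs were called there, and miR-130a passed in the interaction (-0.29, adjusted p = 0.031).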
